A study of Mus musculus with 6 samples.

Results

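The enzymes that make purine, pyrimidine and deoxynucleotides were examined in the mouse embryonic stem cell line E14, with and without knockdown of Nat10. The group was fixed by name and holds 35 of the 31641 genes in the count table, and all 35 were present and had enough counts to be tested. Nat10 encodes an RNA acetyltransferase. Per the labels, 3 libraries (CON) are Nat10 WT without Dox, that is doxycycline, and 3 libraries (KD) are Nat10 KD with Dox. Both groups are the same line. Every KD library and no CON library had doxycycline, so the drug and the knockdown cannot be told apart. The labels do not give the knockdown construct, the clones or the time with doxycycline.

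Nucleotides are built either from small precursors, the de novo route, or from recycled bases and nucleosides, the salvage route. The purine ring is assembled step by step on phosphoribosyl pyrophosphate (PRPP) to inosine monophosphate (IMP), which then branches to AMP and GMP. The pyrimidine ring is completed before it is joined to PRPP, giving UMP and then CTP. Ribonucleotide reductase converts ribonucleotides to the deoxy form for DNA, and many of these genes are known targets of MYC or E2F proteins in dividing cells. Embryonic stem cells divide fast with a short G1 phase and need a large supply of both kinds of nucleotide.

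Libraries made from total RNA held between 33770755 and 39524273 counts each, and whether poly(A) RNA was selected is not given in the labels. Every KD library had less Nat10 RNA, with 1050 to 1164 counts against 4877 to 5496 in CON, a 5.44-fold fall (edgeR adjusted p = 4.21e-14). All 10 stem cell markers, among them Pou5f1 and Nanog, were expressed, and all 10 fell in KD, with a summed level of 4644 to 4733 in CON and 1876 to 1932 in KD. The 8 markers of fibroblasts in the table, the usual feeder cells, summed to 3.87 to 4.67 in CON and 4.08 to 4.27 in KD, with Twist2 at 0 counts in every CON library, and of the 4 that could be tested 3 rose and 1 fell. Of the 9 neuronal markers 5 rose and 3 fell, although their sum was lower in KD, at 16.1 to 17.3 against 42.1 to 43.3 in CON. The 10 markers of primitive endoderm (2 rose, 4 fell) summed to 16.6 to 17.9 in CON and 12.9 to 13.3 in KD, and the 9 of trophoblast (2 rose, 5 fell) to 660 to 688 and 614 to 638. By the same test, 32.2% of all genes rose and 30.8% fell. What part these marker changes, or any change in cell state, have in the values below was not tested. Levels here and below are FPKM, which divide a count by gene length and library total, further scaled by the TMM factor that edgeR gives each library. Nothing says that the replicates were grown separately, so the p-values may rest on technical spread alone. In bulk RNA, fewer cells of a kind and less RNA per cell cannot be told apart.

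Most of the nucleotide synthesis genes were lower in KD, by modest amounts. Of the 35 genes, 22 fell (62.9%), 4 rose (11.4%) and 9 did not pass edgeR's quasi-likelihood test at an adjusted p of 0.05. Over all 18019 genes tested, 30.8% fell and 32.2% rose. The median log2 fold change of the 35 genes was -0.31, against 0.02 for all genes. The KD and CON libraries did not overlap for 28 of the 35 genes (80%), against 67.2% of all genes. Only Hprt, which did not pass, had a fitted change beyond 2-fold, whereas 17.6% of all genes did. The summed level of the 35 genes lay between 1210 and 1232 in CON and between 930 and 949 in KD.

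The scaling of the libraries bears on these counts. With libraries scaled by size only, the median of all genes was 0.25 and every log2 fold change was about 0.23 higher. Then 14 of the 35 genes fell and 11 rose (median -0.08), beside 19.6% of all genes that fell and 46.0% that rose. The 14 falls were also falls with TMM scaling, and they are Prps1, Prps2, Ppat, Paics, Atic, Impdh2, Adss, Dhodh, Umps, Ctps, Tyms, Dctd, Dtymk and Nme1. The 4 rises with TMM scaling, of Adssl1, Uck1, Tk2 and Dck, were also rises by library size. Since every value is higher by library size, this was bound to occur and lends these rises no support. Uck1 and Tk2 did not pass in some other alternatives, given below. The falls of Gart, Pfas, Gmps, Uck2, Rrm2, Tk1, Dut and Nme2 passed with TMM scaling and not by library size. Adsl, Impdh1, Aprt, Cad, Cmpk1, Rrm1 and Samhd1 passed as higher by library size and did not pass with TMM. Under that scaling Adsl, Impdh1, Cmpk1 and Rrm1 still lay below the median of all genes, Cad at it, and Aprt and Samhd1 above it.

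**Figure D1:**
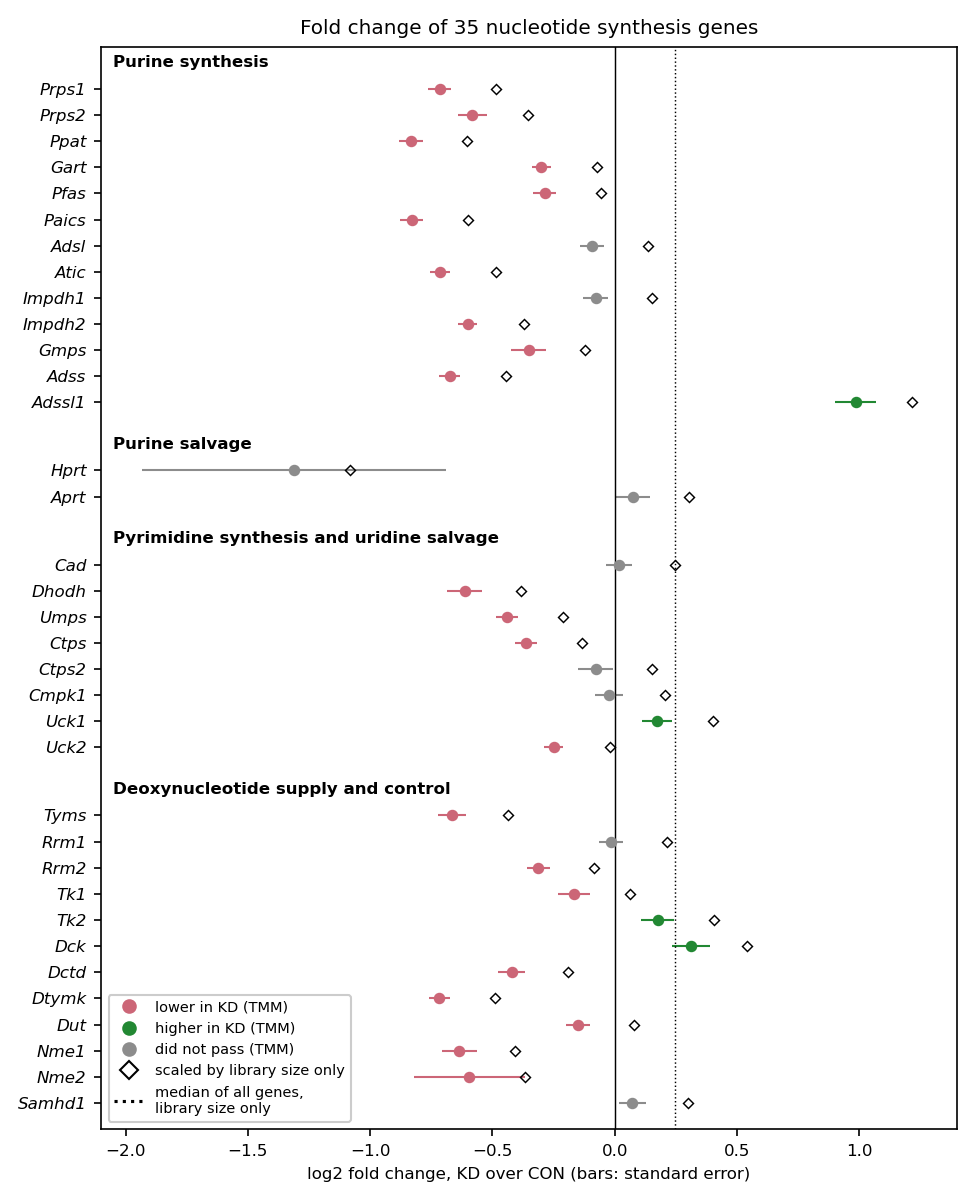
Log2 fold change (KD over CON) of the 35 genes by pathway, with filled circles for TMM scaling (bars are the standard error) and open diamonds for scaling by library size only. The dotted line is the median of all genes under the size-only scaling, 0.25. Adssl1 stands alone on the right, and the strongest falls that passed, of Ppat and Paics, are both in purine synthesis.

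Most genes of purine synthesis fell. The group holds 13 genes, and 10 fell (76.9%), 1 rose (7.69%) and 2 missed the threshold, beside 30.8% and 32.2% of all genes. By library size only, 7 fell (53.8%) and 3 rose (23.1%), beside 19.6% and 46.0% of all genes. The median log2 fold change of the 13 genes was -0.58. In none of the 13 did the KD and CON libraries overlap, although Adsl and Impdh1 did not pass. Over all genes, 67.2% did not overlap. The summed level of the 13 genes was 618 to 631 in CON and 420 to 432 in KD. In the deposited FPKM, with no TMM factor, the sums were 570 to 585 in CON and 455 to 469 in KD. The groups stayed apart on either scale.

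Prps1 and Prps2 encode the synthetases that make PRPP, the ribose donor of all these routes. Prps1 had levels of 66.8, 66.6 and 65.8 in CON and 40.1, 39.2 and 41.9 in KD. It fell 1.64-fold (log2 fold change -0.72, SE 0.047, edgeR adjusted p = 3.5e-09). Prps2 had 12.4, 12.3 and 12.8 in CON and 8.07, 8.27 and 8.7 in KD, a 1.5-fold fall (edgeR adjusted p = 5.66e-07). Prps1 was the more abundant of the synthetases in every library, and both fell.

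Ppat encodes the amidotransferase of the first committed step of purine synthesis. Its levels were 26.9, 26.9 and 27.6 in CON and 14.9, 14.8 and 15.8 in KD, a 1.78-fold fall (log2 fold change -0.83, SE 0.049, edgeR adjusted p = 9.76e-10). Paics encodes an enzyme with carboxylase and ligase activities of the middle steps. It had 147, 139 and 139 in CON and 77.9, 76.6 and 84.8 in KD, also a 1.78-fold fall (edgeR adjusted p = 7.15e-10). These genes lie head to head on chromosome 5 (GRCm38), Ppat from 76913249 to 76951578 on the reverse strand and Paics from 76951307 to 76967509 on the forward strand. Their annotated 5' ends overlap by 272 exonic bases, so reads there cannot be told apart without strand. That overlap is 6.2% of the exonic bases of Ppat and 8.7% of those of Paics.

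Gart, which encodes an enzyme with several activities early in the route, and Pfas, which encodes the amidotransferase between them, changed less than Ppat and Paics. Gart had 55.3, 54.5 and 54.8 in CON and 45.5, 43.7 and 44.6 in KD, a 1.23-fold fall (edgeR adjusted p = 9.86e-06). Antisense gene Gm15964 shares 1014 exonic bases with Gart, 19.7% of its length. Pfas fell 1.22-fold, from 23.8 ± 0.665 to 19.5 ± 0.805 (SD, n = 3 per group, edgeR adjusted p = 6.46e-05). By library size only, neither passed (edgeR adjusted p = 0.137 for Gart and 0.285 for Pfas).

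Adsl encodes adenylosuccinate lyase, which acts both on the way to IMP and on the AMP branch. Its levels were 15.8, 16.7 and 16.2 in CON and 15.5, 15.2 and 15.0 in KD (log2 fold change -0.09, SE 0.048, edgeR adjusted p = 0.108). Its groups did not overlap, but the gap was small beside their spread, and by library size Adsl was higher (log2 fold change 0.14, edgeR adjusted p = 0.0194). Atic, whose product carries out the last steps to IMP with a folate-borne carbon, had 34.8, 33.4 and 34.1 in CON and 21.1, 20.3 and 20.8 in KD. It fell 1.64-fold (log2 fold change -0.72, SE 0.042, edgeR adjusted p = 1.02e-09).

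On the GMP branch, the isozymes of IMP dehydrogenase parted. Impdh2, the form usually abundant in dividing cells, had levels of 143, 140 and 146 in CON and 94.5, 93.7 and 94.2 in KD. This was a 1.52-fold fall (log2 fold change -0.60, SE 0.039, edgeR adjusted p = 3.22e-09). Impdh1 had 43.6, 45.8 and 44.1 in CON and 43.5, 43.3 and 39.6 in KD and did not pass (log2 fold change -0.08, SE 0.049, edgeR adjusted p = 0.183). By library size Impdh1 was higher (edgeR adjusted p = 0.0136). Gmps, which encodes GMP synthetase, fell 1.28-fold from 11.7 ± 1.03 to 9.21 ± 0.878 (edgeR adjusted p = 0.000547), and not by library size (edgeR adjusted p = 0.154). A processed copy, Impdh2-ps, was listed with 48 to 108 counts per library, against 10617 or more for Impdh2. Reads shared between such copies may have been split.

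On the AMP branch the isozymes of adenylosuccinate synthase moved in opposite directions. Adss, the form of most tissues, had 44.5, 42.8 and 44.4 in CON and 27.0, 27.4 and 28.1 in KD. It fell 1.6-fold (log2 fold change -0.67, SE 0.044, edgeR adjusted p = 3.07e-09). Adssl1, the muscle form, had 5.21, 4.63 and 4.86 in CON and 10.0, 9.49 and 9.57 in KD. It rose 1.98-fold (log2 fold change 0.99, SE 0.085, edgeR adjusted p = 7.24e-08), which is the largest change among the 26 genes that passed. Its raw counts rose from at most 371 in any CON library to at least 732 in every KD library. Adss lies on chromosome 1 from 177762962 to 177796511 and Adssl1 on chromosome 12 from 112620045 to 112641360 (GRCm38), and neither shares exonic bases with another gene.

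**Figure D2:**
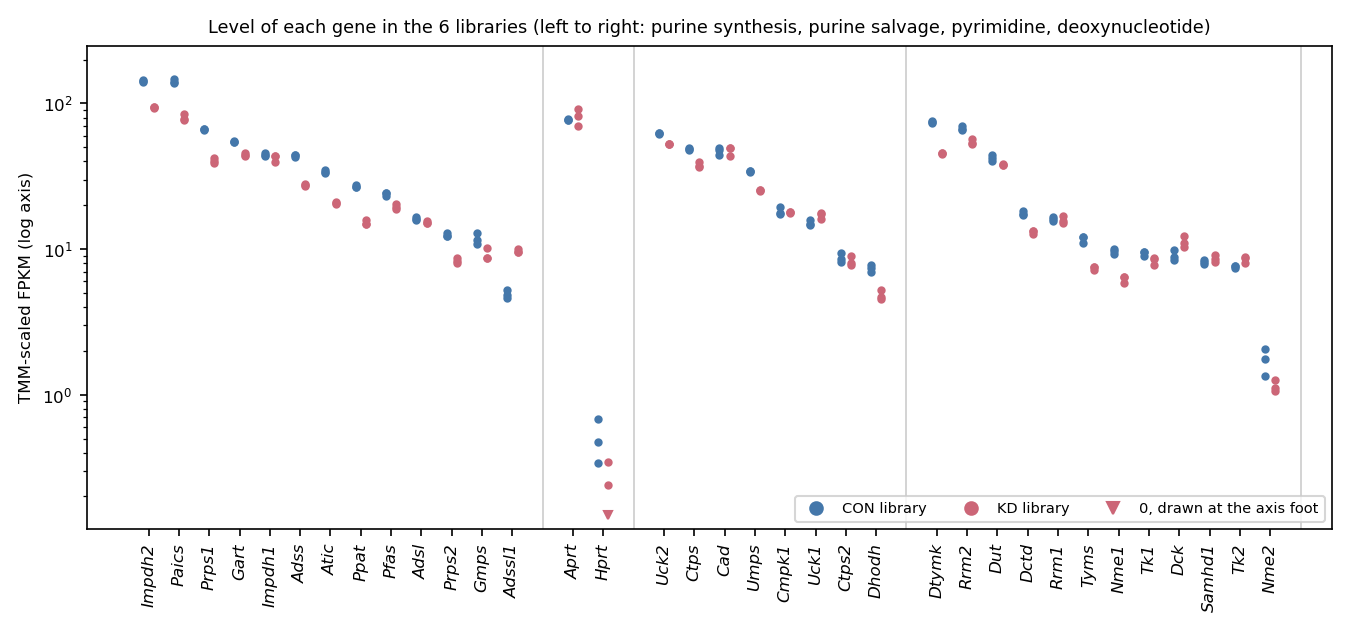
Level of each gene in the 6 libraries, in TMM-scaled FPKM on a log axis, with CON in blue and KD in red and genes ordered by CON level within each pathway. Impdh2 and Paics are the highest of the 35 genes in CON and Hprt the lowest, with 1 KD library at 0.

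Purine salvage had a gene that was nearly silent and a gene that was abundant. Hprt encodes the enzyme that recovers hypoxanthine and guanine. Only 15, 32 and 20 of its reads were counted in CON and 13, 19 and 0 in KD, levels of 0.341, 0.682 and 0.477 and of 0.24, 0.344 and 0. A count of 0 allows up to 3 counts. This was the lowest level of the 35 genes in both groups, below Nme2 at 1.73 ± 0.361 in CON. Hprt lies on chromosome X from 52988137 to 53021659 (GRCm38) and shares no exonic bases with another gene. Derivatives of the E14 line that lack HPRT activity are in wide use, and the labels do not say which E14 stock these cells came from. The groups overlapped and Hprt did not pass (log2 fold change -1.31, SE 0.623, edgeR adjusted p = 0.0799). It passed as lower with limma-voom (adjusted p = 0.032), in edgeR with no count filter (adjusted p = 0.0201) and in edgeR without KD replicate 2 (adjusted p = 0.0377), all resting on these few counts.

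Aprt encodes the enzyme that recovers adenine. It had levels of 76.7, 78.1 and 77.1 in CON and 91.4, 82.1 and 70.5 in KD. The KD libraries spread on both sides of the CON libraries, and Aprt did not pass (log2 fold change 0.07, SE 0.071, edgeR adjusted p = 0.383). KD-3 was the low one, and without it Aprt was higher in KD (log2 fold change 0.16, edgeR adjusted p = 0.00143).

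In the pyrimidine group of 8 genes, 4 fell (50%), 1 rose (12.5%) and 3 missed the threshold, beside 30.8% and 32.2% of all genes. By library size only, 3 fell and 3 rose (37.5% each), beside 19.6% and 46.0% of all genes. The median log2 fold change of the 8 genes was -0.16, and their summed level was 241 to 244 in CON and 209 to 213 in KD. In the deposited FPKM the order of these sums was the other way, with 222 to 225 in CON and 226 to 230 in KD. Cad, whose product carries out the opening steps of the ring and is the main point of control, did not pass. Its levels were 44.2, 49.4 and 47.6 in CON and 49.6, 49.4 and 43.9 in KD (log2 fold change 0.02, SE 0.054, edgeR adjusted p = 0.785), and the groups overlapped. By library size it was higher, at a log2 fold change of 0.25 that matched the median of all genes to 2 decimals.

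The later steps of UMP synthesis fell. Dhodh, which encodes the mitochondrial dihydroorotate dehydrogenase, had 7.42, 6.93 and 7.75 in CON and 5.24, 4.68 and 4.52 in KD. It fell 1.53-fold (log2 fold change -0.61, SE 0.071, edgeR adjusted p = 2.02e-06). Umps, which encodes the enzyme that joins the ring to PRPP and yields UMP, had 33.8, 34.4 and 34.6 in CON and 25.4, 24.9 and 25.5 in KD. It fell 1.36-fold (edgeR adjusted p = 5.07e-07), and 213 of its exonic bases are shared with antisense gene Gm15829. Neither gene overlapped between the groups.

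Among the CTP synthases, Ctps had 49.8, 48.0 and 48.5 in CON and 36.9, 37.3 and 39.6 in KD, a 1.29-fold fall (log2 fold change -0.36, SE 0.046, edgeR adjusted p = 5.39e-06). Ctps2 had 9.34, 8.16 and 8.61 in CON and 8.08, 7.76 and 8.9 in KD and did not pass (log2 fold change -0.08, SE 0.071, edgeR adjusted p = 0.357). Its groups overlapped through KD-3, and without that library it passed as lower (log2 fold change -0.14, edgeR adjusted p = 0.0497). Cmpk1, the UMP and CMP kinase gene, had 19.4, 17.8 and 17.3 in CON and 17.9, 18 and 17.8 in KD, within the CON range (log2 fold change -0.02, SE 0.057, edgeR adjusted p = 0.75).

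Uridine and cytidine kinases of salvage went apart. Uck2 had levels of 62.7, 63.1 and 62.1 in CON and 52.9, 52.3 and 52.8 in KD, a 1.19-fold fall (log2 fold change -0.25, SE 0.039, edgeR adjusted p = 4.11e-05). By library size it was level, at a log2 fold change of -0.02 (edgeR adjusted p = 0.661). Uck1 had 14.8, 15.8 and 14.7 in CON and 17.4, 17.7 and 16.0 in KD, a 1.13-fold rise (log2 fold change 0.17, SE 0.062, edgeR adjusted p = 0.0241). This rise is small, and its adjusted p in edgeR was between 0.0791 and 0.131 without CON replicate 1, CON replicate 3, KD replicate 1 or KD replicate 2.

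Deoxynucleotide supply and control holds 12 genes, of which 8 fell (66.7%), 2 rose (16.7%) and 2 missed the threshold. Over all genes these shares were 30.8% and 32.2%. By library size only, 4 fell and 4 rose (33.3% each), beside 19.6% and 46.0% of all genes. The median log2 fold change of the 12 genes was -0.24, and their summed level was 270 to 283 in CON and 215 to 223 in KD. The largest falls of this group were those of Dtymk and Tyms, both of thymidine nucleotide synthesis. Dtymk encodes thymidylate kinase, which every route to dTTP uses. It had 75.7, 73.3 and 75.0 in CON and 45.9, 45.6 and 44.7 in KD, a 1.64-fold fall (log2 fold change -0.72, SE 0.043, edgeR adjusted p = 1.28e-09). Tyms, the thymidylate synthase gene, had 11.1, 12.1 and 12.1 in CON and 7.18, 7.55 and 7.52 in KD, a 1.58-fold fall (log2 fold change -0.66, SE 0.057, edgeR adjusted p = 7.34e-08). Dctd, whose deaminase product supplies dUMP to thymidylate synthase, fell 1.34-fold from 17.5 ± 0.584 to 13.1 ± 0.319 (edgeR adjusted p = 8.26e-06). Dut, which encodes the dUTPase that keeps uracil out of DNA and also yields dUMP, fell 1.11-fold from 42.2 ± 1.9 to 38.1 ± 0.263 (edgeR adjusted p = 0.0156). The fall of Dut passed neither by library size (log2 fold change 0.08) nor without CON replicate 1 (edgeR adjusted p = 0.0639).

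The subunits of ribonucleotide reductase differed. Rrm2, the small subunit whose level usually follows S phase, had 70.2, 65.9 and 66.6 in CON and 53.9, 52.7 and 56.7 in KD. It fell 1.24-fold (log2 fold change -0.31, SE 0.047, edgeR adjusted p = 2.94e-05), but not by library size (edgeR adjusted p = 0.136). Rrm1, the large subunit, had 16.5, 16.1 and 15.5 in CON and 15.6, 15.2 and 16.9 in KD and did not pass (log2 fold change -0.02, SE 0.050, edgeR adjusted p = 0.795). Rrm2b, the p53-controlled small subunit, which is not among the 35 genes, had 1.3, 1.1 and 1.21 in CON and 0.511, 0.519 and 0.667 in KD. It fell 2.14-fold (edgeR adjusted p = 1.8e-06), from a level far below that of Rrm2.

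The salvage kinases of deoxynucleosides moved little. Dck, the deoxycytidine kinase gene, had 9.82, 8.87 and 8.43 in CON and 10.4, 11 and 12.3 in KD, a 1.24-fold rise (log2 fold change 0.31, SE 0.077, edgeR adjusted p = 0.0023). Tk1, the cytosolic thymidine kinase gene and another gene of S phase, had 9.51, 8.91 and 9.58 in CON and 8.64, 8.56 and 7.71 in KD, a 1.12-fold fall (edgeR adjusted p = 0.0325). The mitochondrial Tk2 had 7.37, 7.68 and 7.67 in CON and 8.88, 8.09 and 8.72 in KD, a 1.13-fold rise (edgeR adjusted p = 0.0326). The calls of both thymidine kinases were fragile. Neither passed with the replicate number as a block (edgeR adjusted p = 0.0568 for Tk1 and 0.0635 for Tk2), and the direction of Tk1 turned by library size (log2 fold change 0.06). Without CON replicate 1, CON replicate 3 or KD replicate 3 the adjusted p of Tk1 was between 0.0574 and 0.108 in edgeR. Tk2 passed with neither DESeq2 (adjusted p = 0.0605) nor edgeR without a count filter (adjusted p = 0.0549), and without any CON library or KD replicate 1 its adjusted p was between 0.0702 and 0.131 in edgeR. Samhd1, whose product breaks dNTPs down, had 8.48, 8.18 and 7.94 in CON and 8.21, 8.56 and 9.1 in KD and did not pass (log2 fold change 0.07, SE 0.055, edgeR adjusted p = 0.262).

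Nme1 and Nme2 encode nucleoside diphosphate kinases, which make the triphosphates. Nme1 had levels of 10.1, 9.73 and 9.22 in CON and 5.88, 6.43 and 6.38 in KD, a 1.55-fold fall (log2 fold change -0.64, SE 0.071, edgeR adjusted p = 1.35e-06). Nme2 was counted only 54, 75 and 79 times in CON and 55, 53 and 54 times in KD, with a fitted 1.51-fold fall (log2 fold change -0.59, SE 0.228, edgeR adjusted p = 0.0333). It did not pass by library size (edgeR adjusted p = 0.172), and without CON replicate 2, CON replicate 3, KD replicate 1 or KD replicate 2 its adjusted p was between 0.0671 and 0.142 in edgeR. In GENCODE M21, Nme2 (chromosome 11, 93949814 to 93956259, GRCm38) shares 573 of its 1171 exonic bases, or 48.9%, with Gm20390, a gene model on the same strand that spans Nme1 and Nme2. Nme1 shares 418 bases, 12.5%, with it. For all 35 genes the length behind the deposited FPKM equals the full exonic length in that annotation. Gm20390 itself is not among the genes with counts here. The sources used here do not say how reads in shared exons were counted, and the level of Nme2 may understate its transcripts.

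To compare related enzymes without any choice of scaling, the log2 ratio of their counts was taken within each library for 8 pairs. The groups did not overlap for 7 of the 8 pairs. How often this holds for pairs of unrelated genes was not computed, and 67.2% of all single genes did not overlap. With 3 libraries against 3, the exact two-sided permutation test cannot go below p = 0.1, and each of the 7 pairs reached that value (0.114 adjusted over the 8 pairs), so none can pass 0.05. The ratio of Adss to Adssl1 changed most. On the log2 scale it was 4.21, 4.32 and 4.31 in CON and 2.54, 2.65 and 2.67 in KD, a shift of -1.66, or a 3.16-fold lower ratio. Per length, Adss was 8.55 to 9.24 times Adssl1 in CON and 2.69 to 2.93 times in KD.

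The other shifts were smaller. The ratio of Impdh1 to Impdh2 was -1.61, -1.51 and -1.63 in CON and -1.02, -1.02 and -1.15 in KD, a shift of 0.52 toward Impdh1. That of Uck1 to Uck2 moved by 0.42 toward Uck1, and that of Tk1 to Tk2 by -0.34 toward Tk2. The ratio of Ctps to Ctps2 moved by -0.29 toward Ctps2 and that of Prps1 to Prps2 by -0.13 toward Prps2. Each of the shifts given so far, of 6 pairs, was toward the member that was lower per length in CON, which was noticed after the values were seen. Rrm2 gained on Rrm2b, with a shift of 0.79. Nme1 and Nme2 overlapped between groups (shift -0.06, exact p = 0.8).

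**Figure D3:**
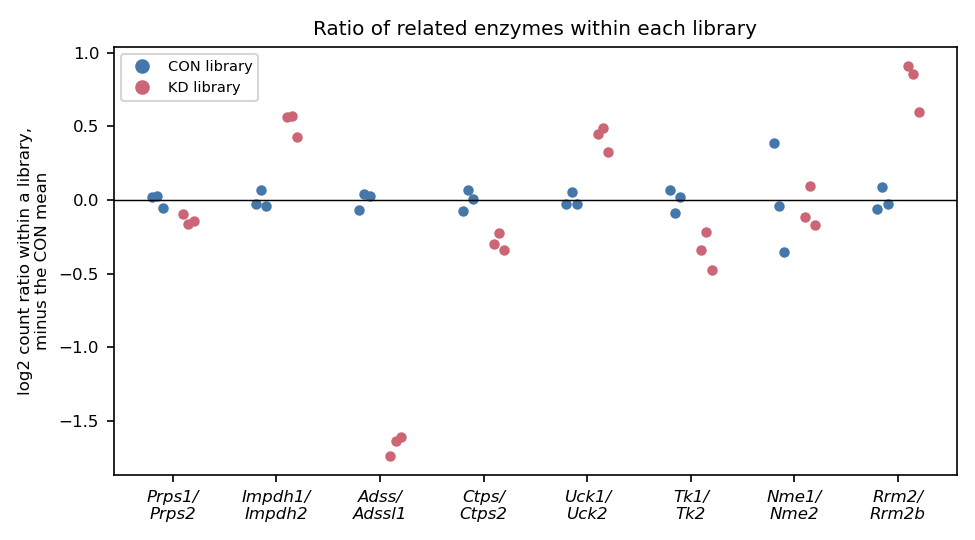
Log2 count ratio of related enzymes within each library, minus the CON mean of that pair, with CON libraries in blue and KD libraries in red. Adss to Adssl1 shifts by -1.66 and the groups are apart in every pair except Nme1 to Nme2.

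The starts of the 35 genes were searched for motifs of MYC, E2F and ATF4 type, in RefSeq promoter windows of GRCm38.p6 that run from 250 bases before to 50 after a start. Of the 35 genes, 33 have a window, 42 windows in all. The E-box CACGTG, the site type of MYC and MAX and identical on both strands, was found at 6 genes, in 7 of the 42 windows (16.7%), against 7.15% of all 32851 windows. All 6 are among the 14 of the 35 genes that fell under both scalings. How often genes with an E-box fell among all genes was not computed, and a link to MYC was not tested. The stretches of 30 bases are printed to show them, with the E-box in capitals.
Atic (chr1:71557137-71557166, forward strand): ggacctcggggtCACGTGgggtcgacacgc
Dtymk (chr1:93802065-93802094, reverse strand): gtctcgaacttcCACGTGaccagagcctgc
Tyms (chr5:30073669-30073698, reverse strand): aaccacttctgtCACGTGggggcggggtct
Paics (chr5:76951087-76951116, forward strand): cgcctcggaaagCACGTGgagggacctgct
Impdh2 (chr9:108560314-108560343, forward strand): gagctcgataagCACGTGgttacccagctc
Nme1 (chr11:93968273-93968302, reverse strand): gctgcggggaacCACGTGaggccggggagc
Nme1, other start (chr11:93968037-93968066, reverse strand): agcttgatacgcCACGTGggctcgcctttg

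The E-box begins 7 bases before the start of Atic, 61 before that of Tyms and 148 before that of Dtymk. In GENCODE M21 the stretch of Paics lies in an annotated UTR exon of Ppat. The stretches of Atic and Impdh2 and the first of Nme1 overlap UTR exons of their own genes, and those of Dtymk and Tyms lie outside annotated exons, as does the stretch at the other Nme1 start. The E2F-type words TTTCCCGC, TTTCGCGC or TTTGGCGC, on either strand, were found only at Ppat and Prps2, in 2 of the 42 windows (4.8%) against 1.84% of all windows. The word TGATGNAA, of the type bound by ATF4 with its partners, was found only at Prps1, in 1 of 42 windows (2.4%) against 3.97%. A match is a description of letters and does not show binding, and no binding was measured here.

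The factors themselves were measured. Mycn fell 3.37-fold, from 31.5 ± 0.902 to 9.36 ± 0.829 (SD, n = 3 per group, edgeR adjusted p = 5.77e-12), and Myc fell 2.41-fold, from 13.3 ± 0.331 to 5.52 ± 0.594. Atf4, the factor of amino acid stress, fell 4.23-fold from 164 ± 1.06 to 38.9 ± 0.825. E2f1 fell 1.22-fold, from 28.1 ± 1.55 to 23.0 ± 1.98 (edgeR adjusted p = 0.00115), and did not pass by library size. Of 12 such factors listed, 9 fell (75%) and 2 rose (16.7%), beside 30.8% and 32.2% of all genes. The others that fell were Mnt (1.52-fold), Mxd3 (1.35-fold), E2f2 (1.36-fold), E2f3 (1.12-fold) and E2f4 (1.6-fold), and Max did not pass. Mxd3 and E2f3 did not pass by library size. The 2 that rose were Srebf1 (2.21-fold), a factor of lipid synthesis, and Rb1 (1.42-fold). By library size only, 6 of the 12 fell (50%) and 3 rose (25%), beside 19.6% and 46.0% of all genes.

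Other genes of nucleotide metabolism were given in 3 lists. Of their 67 genes, 57 could be tested. Among these 57, 23 rose (40.4%) and 20 fell (35.1%), beside 32.2% and 30.8% of all genes, and 14 missed the threshold. By library size only, 33 rose (57.9%) and 15 fell (26.3%), beside 46.0% and 19.6% of all genes. Among 20 further kinases and reductase genes tested, 7 rose and 7 fell (35% each), beside 32.2% and 30.8% of all genes. The median log2 fold change of the 20 was 0.03. By library size only, 13 rose (65%) and 4 fell (20%), beside 46.0% and 19.6% of all genes. Uckl1, a relative of the uridine kinases, rose 1.86-fold from 6.92 ± 0.17 to 12.9 ± 0.439, and Adk, the adenosine kinase gene, rose 1.57-fold. Ak5 rose 6.63-fold, from only 0.106 ± 0.0641 to 0.719 ± 0.102. Ak6, an adenylate kinase gene, fell 2.22-fold.

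Of 27 breakdown and interconversion genes tested, 13 rose (48.1%) and 7 fell (25.9%), beside 32.2% and 30.8% of all genes. The median log2 fold change of the 27 was 0.17. By library size only, 17 rose (63%) and 7 fell (25.9%), beside 46.0% and 19.6% of all genes. Cda, the cytidine deaminase gene, rose 3.91-fold from 2.99 ± 0.153 to 11.7 ± 2.04 (edgeR adjusted p = 9.37e-09). The nucleoside diphosphatase genes Entpd5 and Entpd6 rose 2.95-fold and 1.81-fold. Upp1, the uridine phosphorylase gene, fell 2.6-fold from 126 ± 1.03 to 48.6 ± 2.7 (edgeR adjusted p = 3.45e-12), and Pnp, the purine nucleoside phosphorylase gene, fell 2.65-fold from 4.03 ± 0.162 to 1.52 ± 0.0774. Dctpp1, whose product removes non-standard dNTPs, fell 1.55-fold from 165 ± 1.48 to 106 ± 10.8.

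Of 10 transporter genes tested, 3 rose (30%) and 6 fell (60%), beside 32.2% and 30.8% of all genes. The median log2 fold change of the 10 was -0.25. By library size only, 3 rose (30%) and 4 fell (40%), beside 46.0% and 19.6% of all genes. The nucleoside transporter genes Slc28a1 and Slc29a1 fell 5.7-fold, from 13.0 ± 0.321 to 2.29 ± 0.266, and 2.61-fold, from 52.6 ± 1.56 to 20.1 ± 1.35. Slc25a36, a mitochondrial pyrimidine nucleotide carrier gene, fell 2.53-fold. Among those that rose were Slc29a3 (1.79-fold), a lysosomal nucleoside transporter gene, and Slc43a3 (1.22-fold).

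De novo purine and thymidylate synthesis take carbon from folate. Of 16 folate genes, 9 fell (56.2%) and 4 rose (25%), beside 30.8% and 32.2% of all genes. The median log2 fold change of the 16 was -0.26. Mthfd2 and Shmt2, which encode mitochondrial folate enzymes, fell 7.87-fold and 4.2-fold, and Aldh1l2 13.5-fold from a level of only 2.36 ± 0.12. Other mitochondrial members rose, the folate carrier gene Slc25a32 1.22-fold and the scarce Mthfd2l 1.48-fold, from 0.247 ± 0.0368. The cytosolic Aldh1l1 rose 1.2-fold. By library size only, 8 folate genes rose and 8 fell (50% each), beside 46.0% and 19.6% of all genes. Of 25 DNA replication genes, 22 fell (88%), beside 30.8% of all genes, and Rfc3 rose (1.16-fold). The list's median was -0.73 on the log2 scale. By library size only, 21 fell (84%) and 2 rose (8%). Mcm5 and Mcm2, which encode helicase subunits, fell 3.84-fold and 2.18-fold, and Mcm10, needed to start replication, fell 2.49-fold. The median of the 12 deoxynucleotide genes, -0.24, lay between that of the replication genes and that of all genes, and what the share of cells in S phase has to do with it was not tested.

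**Figure D4:**
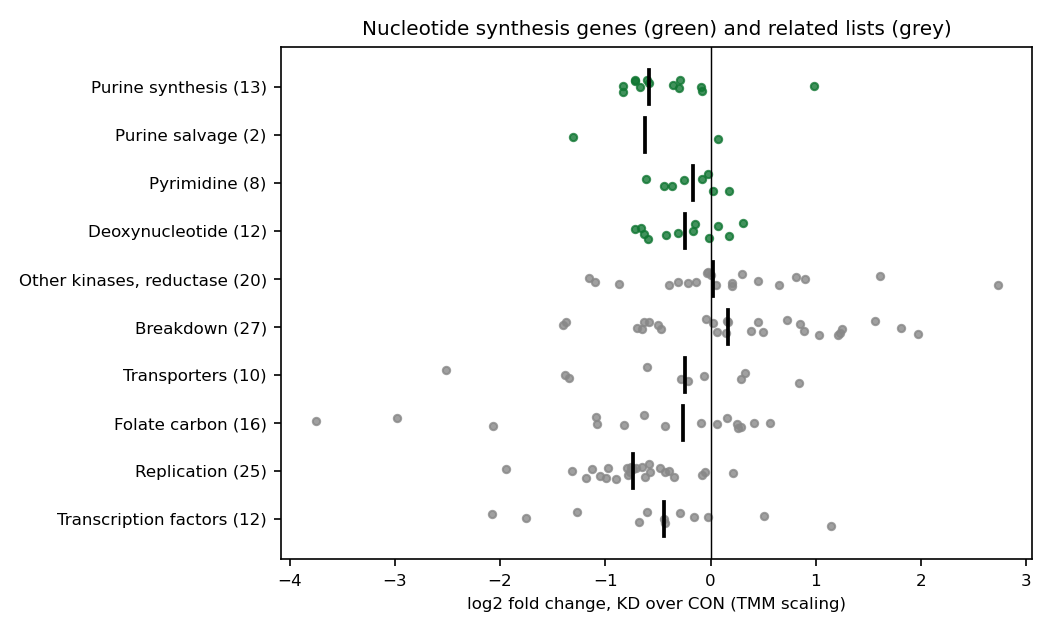
Log2 fold change (KD over CON, TMM scaling) of each tested gene in the 4 pathway groups (green) and the 6 related lists (grey), with a bar at each median and the number of genes in parentheses. All purine synthesis genes except Adssl1 lie below 0, with the median at -0.58, while the breakdown genes spread on both sides of 0.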

How the data were processed

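RNA-seq of 6 libraries was analysed from 1 table. Per the submitters' processing notes, FastQC 0.11.9, STAR 2.5.3a and featureCounts were used with build mm10. The sources used here do not give the annotation release, strand setting or treatment of multi-mapped reads. The authors deposited raw read counts per gene, and FPKM, named so per the file headers, which a check of the values showed to be these counts over gene length and library size. Columns were matched to samples by treatment and number, with 0 left over. Dates had replaced 26 symbols, restored by identifier.

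Counts were tested in R 4.3.3 with edgeR 4.0.16: filterByExpr, TMM factors (0.922 to 0.926 in CON, 1.08 to 1.084 in KD), robust quasi-likelihood F-test of KD against CON, Benjamini-Hochberg adjustment over 18019 genes, threshold 0.05. The SE is the log2 fold change over the square root of F. Levels are the deposited FPKM over the TMM factor. The fit was tested on simulated data in which few genes changed, evenly up and down, so that test does not bear on the choice of scaling. Paralog ratios used counts plus 0.5 (0.05 and the deposited FPKM as alternatives). Alternatives were scaling, filter, DESeq2 1.42.0, limma-voom (limma 3.58.1), counts divided by 2, a replicate block and each library left out. Between 70 and 71.7% of counts from 1 to 20 were even, as when both mates of a pair are counted, so low counts stand for fewer fragments.

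Members and lists were chosen with earlier results of these data known. Values in every library are given for the 3 largest changes per pathway, paralogs whose ratio did not overlap and members that did not pass. From each other list, up to 3 genes per direction by smallest p at a mean of 1 CPM or more were taken, plus Myc, Mycn, E2f1 and Atf4, and some genes this rule takes are not reported here. Other members have mean ± SD.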

Additional observations from a re-analysis of the deposited data

How the results depend on the processing

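With libraries scaled by size only, 11 of the 35 genes rose (31.4%) and 14 fell (40%), beside 46.0% and 19.6% of all genes. The median log2 fold change of the 35 was -0.083, and the cause was not tested. Under that scaling the log2 fold change turned for Adsl (0.14), Impdh1 (0.15), Ctps2 (0.15), Cmpk1 (0.21), Rrm1 (0.21), Tk1 (0.063) and Dut (0.080), all of which stayed below the median of all genes, 0.25. In the other 13 alternatives between 20 and 23 genes fell. Leaving out 1 library at a time gave 2 to 5 rises, 20 to 22 falls and a median of -0.35 to -0.30, with 2 rises without CON replicate 1, CON replicate 3 or KD replicate 1 and the median of -0.35 without KD replicate 3. In these fits the value of Aprt ranged from -0.024 to 0.16, that of Cad from -0.035 to 0.068, that of Cmpk1 from -0.060 to 0.016 and that of Rrm1 from -0.069 to 0.0097, none of which passed except Aprt without KD replicate 3. The falls of 14 genes and the rises of Adssl1 and Dck passed in all 14 alternatives. Hprt could not be fitted with counts divided by 2 or a minimum of 1 CPM in 3 libraries, where it was filtered out. The Nme1 to Nme2 ratio shifted by between -0.24 and 0.13 with 1 library left out, and turned without CON replicate 1.

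With the replicate number as a replicate block, 3 genes rose and 21 fell, and Tk1 and Tk2 were lost. Deviations of same-numbered libraries correlated at -0.061, 0.015 and -0.039, and 0 of 3 CON libraries correlated best with their own number. No pairing by number was seen, but with 3 libraries per group a small shared effect could be missed. The labels do not say what the number marks. The levels of Hprt and Nme2 rest on under 100 counts per library, and precision there is limited by depth.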
